A study of Homo sapiens with 2 samples.

Results

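GRHL2 occupied 2769 broad regions of 1500 bp or more in KYSE510 cells, and 1122 of these broad GRHL2 regions held no MLL3 region. The 1122 regions are described here. They were chosen by 2 readouts of the peak lists, the width of the GRHL2 region (its end minus its start) and the absence of any MLL3 region overlapping it by 1 bp or more, on chromosomes 1 to 22. The 1647 GRHL2 regions of the same minimum width that do overlap MLL3 serve as the reference. Regions with a summit in either of 2 tracts crowded by both factors, 212.1 to 216.7 Mb on chromosome 1 and 5.2 to 9.6 Mb on chromosome 9, were left out of both groups. Those tracts held a further 1005 broad GRHL2 regions, of which 506 had no MLL3. The wider list from which the members come held 145886 GRHL2 regions of any width, out of 153209 in the deposited file.

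The study mapped both proteins by chromatin immunoprecipitation and sequencing (ChIP-seq) in untreated KYSE510, an established line of human esophageal squamous cell carcinoma, with 1 library precipitated with an MLL3 antibody and 1 with a GRHL2 antibody, each called against input. Its title treats MLL3 and GRHL2 as a complex, so that the broad GRHL2 regions where no MLL3 was listed bear on how far the binding of the factors coincides. There is no replicate for either antibody, the files give no read counts, and the depth of the libraries is unknown. No test between samples was therefore possible. Each share carries an exact Clopper-Pearson 95% interval and each median an exact binomial one. Both kinds describe counting error alone, as if regions were independent, although neighbouring regions share their library and their stretch of chromatin.

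GRHL2 (Grainyhead-like 2) is a DNA-binding transcription factor of epithelial cells, known for keeping genes of cell adhesion and epithelial identity active. MLL3 (KMT2C) is a histone methyltransferase that places the monomethyl mark of enhancers on lysine 4 of histone H3. It works as part of a large complex, and transcription factors are known to help bring that complex to its sites. In a list of narrow peaks, a transcription factor bound at 1 site commonly gives a far narrower region than those described here. A region of 1500 bp or more can come from a very strong single site with wide shoulders, from several sites called as 1, or from a low and extended signal.

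The members spanned a wide range of GRHL2 strength, with more of them at the low end than at the high end. Their GRHL2 fold enrichment, the authors' ratio of ChIP signal at the summit to local background, had a median of 7.99 (95% interval 7.27 to 8.81), with quartiles of 4.47 and 22.8 and a range from 1.90 to 149. A first mode lay below a fold of 10 and a second, lower one between 20 and 50. Of the 1122 members, 341 (30.4%, interval 27.7 to 33.2%) had a fold under 5, and 140 (12.5%, interval 10.6 to 14.6%) had a fold of 40 or more. In the reference the median was 42.8 (interval 40.3 to 45.4), with 5.34% of regions under a fold of 5 and 52.6% at 40 or more. These folds come from the same GRHL2 list as the widths that chose the members and are a description.

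**Figure D1:**
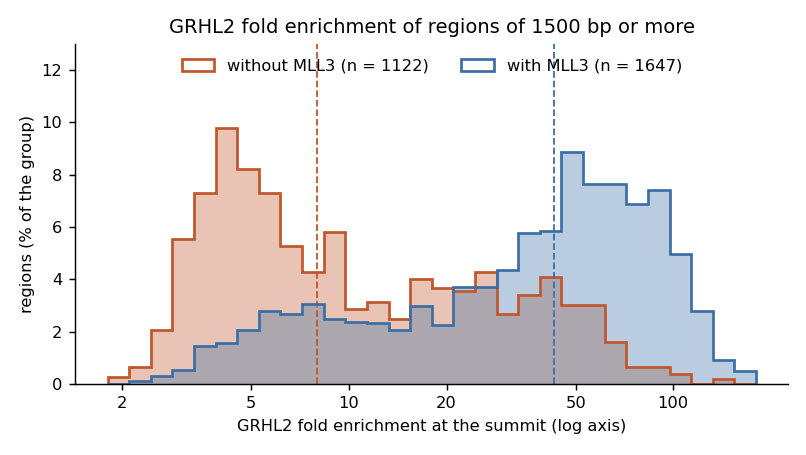
Distribution of GRHL2 fold enrichment (x axis, log scale) in the 1122 broad GRHL2 regions without MLL3 and the 1647 with MLL3, each as a percentage of its group (y axis). Dashed lines mark the medians, 7.99 and 42.8. Regions without MLL3 pile up below a fold of 10, with a second, lower mode between 20 and 50.

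Significance followed the same order. The median −log10 q of the members was 15.1, against 186 in the reference, and 240 members (21.4%) reached a −log10 q of 100, against 1077 reference regions (65.4%). At the low end, 37 members (3.30%) had a q above 0.05 and 93 (8.29%) a −log10 q under 2, against 6 and 9 of the reference regions. The GRHL2 list admits such regions because its lowest −log10 p is 1.30, close to an unadjusted p of 0.05. The members stood well above the GRHL2 list as a whole, which their choice by width favours. Over all GRHL2 regions, with a median width of 356 bp, fold rose with width (Spearman rho 0.44). All GRHL2 regions had a median fold of 2.72, and 91.7% of them were under a fold of 5.

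The members were also narrower than the reference, although both started at 1500 bp. Their median width was 1770 bp (quartiles 1604 and 2038 bp, maximum 4678 bp), against 1954 bp (quartiles 1684 and 2433 bp, maximum 6949 bp) in the reference. The members together covered 2130 kb and the reference 3540 kb. With the reference weighted to the widths of the members, its median fold was 36.6, so that most of the gap in fold remained at equal width. Width and fold were only loosely related among the members (Spearman rho 0.22 over 1122 regions of 1 library) and more closely in the reference (rho 0.37 over 1647). The width limit itself cut through a continuum. The 152 GRHL2 regions without MLL3 that were up to 50 bp too narrow for it had a median fold of 6.46, and the 151 that passed it by less than 50 bp had 6.12.

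Among GRHL2 regions of every width, 94.2% held no MLL3, whereas among the broad ones the share was 40.5%. The share fell from class to class as regions widened. It was 99.5% at the smallest width in the list, 265 bp, 88.7% from 500 to under 1000 bp and 66.2% from 1000 to under 1500 bp. Within the broad regions it went on falling, from 48.2% (interval 45.8 to 50.6%) at 1500 to under 2000 bp to 34.3% (30.6 to 38.2%) at 2000 to under 2500 bp and 17.9% (12.6 to 24.3%) at 3000 bp or more. In the widest of these classes 32 of 179 regions were members. Wider regions have more room to meet an MLL3 region, and they were also stronger. In each broad width class the members were the weaker part. At 1500 to under 2000 bp their median fold was 7.32 against 31.4 with MLL3, and at 3000 bp or more it was 21.7 against 73.5.

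Set out by strength, the absence of a listed MLL3 region was the rule in weak broad regions and rare in strong ones. MLL3 was absent from 79.5% of 429 broad regions with a fold under 5 (interval 75.4 to 83.2%), from 47.8% of 337 between 10 and 20 (42.3 to 53.3%), from 18.2% of 694 between 40 and 80 (15.4 to 21.2%) and from 4.47% of 313 at 80 or more (2.47 to 7.39%). The last class holds only 14 members. The decline was alike in narrower and wider members of the range. From 1500 to under 2000 bp the share went from 80.7% to 8.11% from the lowest to the highest class of fold, and at 2000 bp or more from 75.3% to 3.35%. In each class of fold the intervals of the 2 width groups overlapped.

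**Figure D2:**
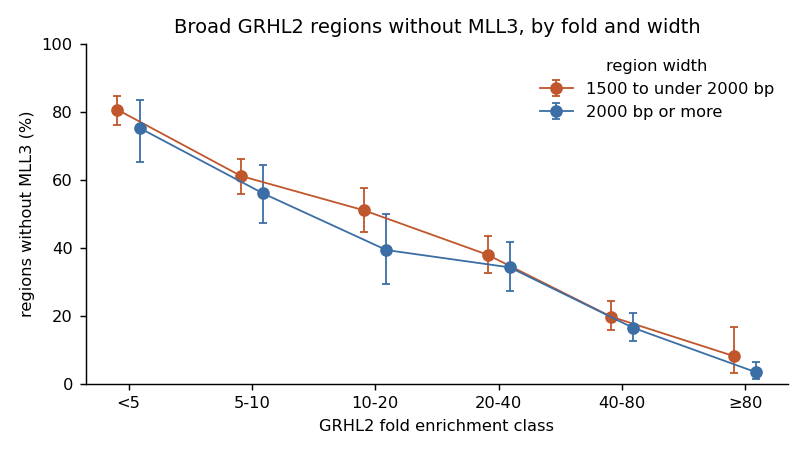
Percentage of broad GRHL2 regions without MLL3 (y axis) by class of GRHL2 fold enrichment (x axis), for regions of 1500 to under 2000 bp and of 2000 bp or more, with exact 95% intervals. In both width groups the share falls from above 75% under a fold of 5 to below 10% at a fold of 80 or more.

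To compare widths over an equal stretch of DNA, the presence of MLL3 was also read within 250 bp of the GRHL2 summit only. At a fold of 10 to 20, MLL3 was absent from this window in 71.8% of 1416 regions of 500 to under 1000 bp (interval 69.3 to 74.1%), in 61.6% of 910 regions of 1000 to under 1500 bp (58.4 to 64.8%) and in 52.8% of 337 broad regions (47.3 to 58.3%). The median folds of these groups were 13.1, 13.9 and 14.4. At a fold of 20 to 40 the shares were 52.6% (47.0 to 58.0%), 46.7% (42.8 to 50.6%) and 40.4% (36.1 to 44.9%), so that the intervals of adjoining width groups overlapped, with median folds of 24.4, 27.6 and 29.2. Wider regions were thus also higher within each of the 2 classes, and width and height were not separated by this reading. The falling order of the shares was not kept in any of the other classes of fold. At a fold under 5 the shares were 92.7%, 83.8% and 86.5%, and at 5 to 10 they were 76.5%, 66.2% and 67.7%. At 40 to 80 they were 19.4% (6 of 31 regions), 22.1% and 18.7%. At 80 or more they were 0% (of 1 region), 5.26% (1 of 19) and 4.47%. The regions of highest significance, with a −log10 q of 100 or more, were read for overlap over their whole width, not in the window. This gives broad regions more room to meet MLL3. On this measure MLL3 was missing from 240 of 1317 broad regions (18.2%, interval 16.2 to 20.4%). It was missing from 263 of 762 narrower ones (34.5%, 31.1 to 38.0%), which had the lower median fold (37.2 against 55.0).

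Absence from the MLL3 list is not absence of MLL3, since that list ends at a −log10 q of 2.07. The GRHL2 list goes down to a −log10 q of 0, so the 2 lists were not cut alike. The MLL3 regions found in the reference show how strength of the factors went together there. In reference regions with a GRHL2 fold under 5 the highest MLL3 region had a median MLL3 fold of 6.16, and in those with a GRHL2 fold of 80 or more it had 16.9. The corresponding median −log10 q of MLL3 were 8.99 and 43.8. Of the weak reference regions, 18.2% (16 of 88) carried MLL3 only at a −log10 q under 5, against 1.67% (5 of 299) of the strongest. Broad GRHL2 regions of low fold thus had MLL3 regions closer to the end of the MLL3 list when they had one at all. Whether the members carry MLL3 below that limit was not tested.

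The position of MLL3 inside the reference regions changed with GRHL2 strength as well. The highest MLL3 summit lay within 100 bp of the GRHL2 summit in 93.3% of the reference regions with a fold of 80 or more (interval 89.9 to 95.9%), with a median distance of 31 bp. Under a fold of 5 this held for 22.7% (14.5 to 32.9%), with a median distance of 299 bp. In 45 of these 88 regions the highest MLL3 summit was more than 250 bp from the GRHL2 summit, although the MLL3 region itself can reach closer. MLL3 covered a median of 28.5% of the width of a reference region.

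The position of the summit differed between weak and strong members and, in a given class of fold, did not differ from the reference beyond the intervals. A summit farther from the middle than from the nearer end of the region was called off centre and was found in 292 of the 1122 members (26.0%, interval 23.5 to 28.7%) and in 195 of the 1647 reference regions (11.8%, 10.3 to 13.5%). Over all GRHL2 regions of any width the share was 22.5%, and 91.7% of these regions had a fold under 5. By class of fold the share among members was 33.7% under 5, 36.2% between 5 and 10, 20.5% between 10 and 20, 15.9% between 20 and 40 and 5.56% between 40 and 80, and none of the 14 members at 80 or more had such a summit (exact interval up to 23.2%). In the reference the same classes gave 42.0%, 28.4%, 21.0%, 11.7%, 3.17% and 3.01%, and the intervals of members and reference overlapped in each of the 6 classes. Over all GRHL2 regions, most of them far narrower, the classes gave 23.9%, 8.37%, 4.98%, 4.65%, 2.63% and 2.70%. These were below the shares of the members in all classes but the last. The median distance from the summit to the middle of the region was 340 bp in members with a fold under 5 and 195 bp in those between 40 and 80.

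**Figure D3:**
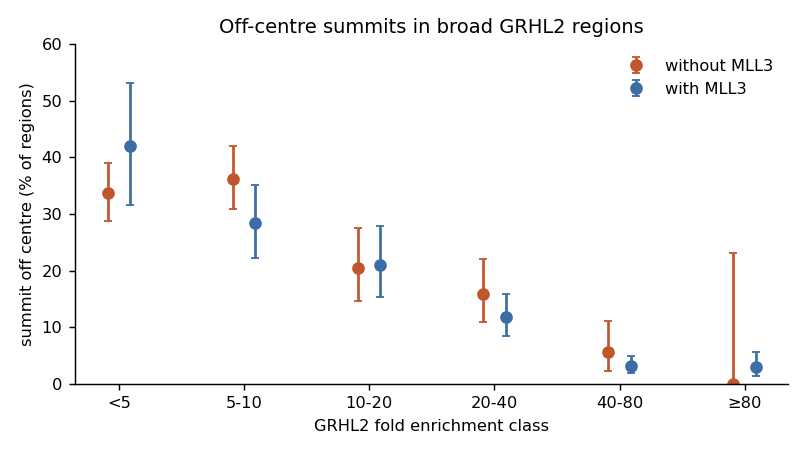
Percentage of broad GRHL2 regions whose summit lies closer to an end than to the middle (y axis) by class of GRHL2 fold enrichment (x axis), without and with MLL3, with exact 95% intervals. Off-centre summits are rarer at a fold of 40 or more than under 10 in both groups, the shares without MLL3 are 33.7% and 36.2% in the lowest 2 classes, and the intervals of the groups overlap in each class.

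Members lay nearer to MLL3 regions than a typical GRHL2 region did, but farther than the reference lay from its next MLL3 region. The gap was measured to the nearest MLL3 region that did not overlap. For the reference this passes over the MLL3 region that placed it in that group, so the 2 groups are not fully alike. The median gap was 36.9 kb in the members (interval 32.6 to 41.1 kb), 27.3 kb in the reference (25.0 to 30.1 kb) and 70.9 kb over all GRHL2 regions (70.3 to 71.6 kb). An MLL3 region lay within 10 kb of 254 members (22.6%, interval 20.2 to 25.2%), of 27.7% of the reference (25.5 to 29.9%) and of 14.0% of all GRHL2 regions. Within 1 kb the shares of members and reference were 3.30% and 3.52%, which do not differ beyond their intervals. The median gap was 27.0 kb (22.5 to 36.2 kb) for members with a fold under 5 and 46.9 kb (33.0 to 68.6 kb) for those with a fold of 40 or more, with intervals that overlapped. In the reference these classes gave 18.8 kb (10.4 to 30.3 kb) and 34.6 kb (28.5 to 39.2 kb). In both classes the intervals of members and reference overlapped.

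**Figure D4:**
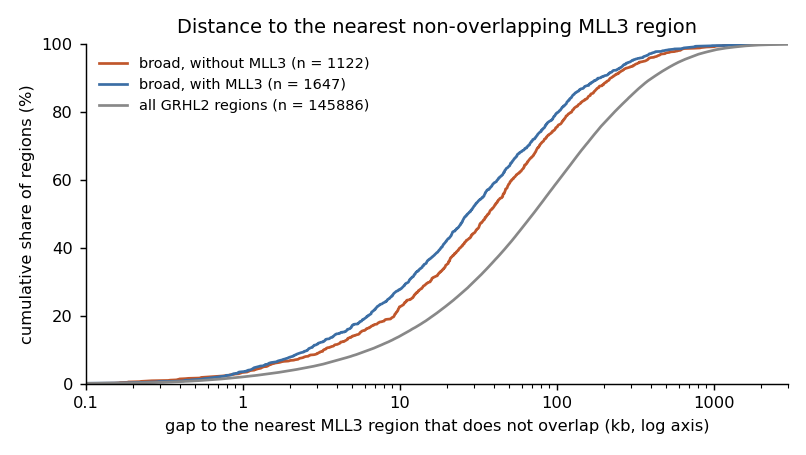
Cumulative percentage of regions (y axis) by the gap to the nearest MLL3 region that does not overlap them (x axis, kb, log scale). The curve of the 1122 broad regions without MLL3 (median 36.9 kb) runs between those of the 1647 broad regions with MLL3 (27.3 kb) and of all 145886 GRHL2 regions (70.9 kb).

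Other GRHL2 regions crowded around members and reference alike. The nearest other GRHL2 region was a median of 1115 bp away from a member (interval 994 to 1270 bp) and 1075 bp from a reference region (973 to 1185 bp), against 2998 bp for GRHL2 regions in general. It lay within 1 kb for 47.1% of the members and 48.1% of the reference. Within 50 kb to either side the members had a median of 12 further GRHL2 regions (quartiles 7 and 21, maximum 81). The reference had a median of 11 and all GRHL2 regions a median of 9. Members with a fold under 5 had a median of 17, and those with a fold of 40 or more a median of 11. The same classes of the reference had medians of 15 and 10.

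The nearest broad neighbour was more often a region without MLL3 around members than around the reference, and part of this lay in a few clusters. Another broad region lay within 50 kb of 444 members, and for 236 of these (53.2%, interval 48.4 to 57.9%) the nearest one was itself a member. In the reference the nearest broad neighbour within 50 kb was a member in 199 of 551 cases (36.1%, 32.1 to 40.3%) and another reference region in 352 (63.9%, 59.7 to 67.9%). Members made up 40.5% of all broad regions. The regions in the clusters described next were then left out, but still counted as possible neighbours of the others. Members were the nearest broad neighbour in 44.4% of cases around members (39.1 to 49.7%) and in 35.2% around the reference (31.2 to 39.4%). Members made up 38.6% of the broad regions outside the clusters. The intervals then overlapped slightly.

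The members were spread over 694 bins of 1 Mb, 464 of which held a single one, but 7 bins with 7 or more members together held 99 of them (8.82%). The limit of 7 was set after the counts had been seen. These bins formed 4 groups, on chromosomes 15, 6 and 1, and no other bin held more than 6 members. The reference had at most 9 regions in a bin, and 21 reference regions lay in the 7 bins. Of the 341 members with a fold under 5, 70 came from these bins.

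The largest group lay on chromosome 15 between 22000001 and 25000000 and held 52 members against 8 broad regions with MLL3 (86.7% without MLL3, interval 75.4 to 94.1%). The bins were picked for holding many members, which favours a high share and which the interval does not allow for. Over all broad regions with a fold under 5 the share without MLL3 was 79.5% (interval 75.4 to 83.2%). Its members were uniformly weak. Their folds ran from 2.23 to 7.33 with a median of 3.60, 49 of the 52 were under 5, and 20 had a −log10 q under 2. The strongest was a region of 1746 bp at 23085286 to 23087031 (peak KYSE510_GRHL2vsInput_peak_52278, fold 7.33). GRHL2 regions covered 25.0% of these 3 Mb, against a median of 1.79% over the 2705 1 Mb bins with a GRHL2 region, and a member had a median of 67 further GRHL2 regions within 50 kb. MLL3 was not missing from this stretch as such. It held 52 MLL3 regions with a median fold of 4.92 and a maximum of 13.3.

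The second group lay on chromosome 6 between 26000001 and 28000000, with 30 members and 5 broad regions with MLL3 (85.7% without MLL3, interval 69.7 to 95.2%). The choice of bins favours a high share here as well. These members were stronger than those on chromosome 15, with a median fold of 5.45, quartiles of 4.73 and 8.80 and a maximum of 20.2, and 3 of the 30 had a −log10 q under 2. The strongest 2 were at 26340751 to 26342635 (KYSE510_GRHL2vsInput_peak_115266, fold 20.2) and at 26595848 to 26598071 (KYSE510_GRHL2vsInput_peak_115349, fold 18.4). GRHL2 regions covered 20.6% of the 2 Mb, and 21 MLL3 regions with a median fold of 5.76 were listed there.

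Both groups on chromosome 1 were small. Between 113000001 and 114000000 there were 9 members with folds from 3.94 to 46.8, beside 3 broad regions with MLL3. The strongest of the 9 was at 113644839 to 113647141 (KYSE510_GRHL2vsInput_peak_7341, fold 46.8), 37760 bp from the nearest MLL3 region. Between 218000001 and 219000000, on the distal side of the crowded tract that was left out, there were 8 members with folds from 2.42 to 5.77, of which 4 had a −log10 q under 2, beside 5 broad regions with MLL3. GRHL2 covered 25.2% of that bin.

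By chromosome, the share of broad regions without MLL3 was highest on chromosome 15 (61.3%, 87 of 142, interval 52.7 to 69.3%), chromosome 6 (54.7%, 82 of 150, 46.3 to 62.8%) and chromosome 13 (48.8%, 20 of 41, 32.9 to 64.9%). It was lowest on chromosomes 4 (29.4%, 20 of 68, 19.0 to 41.7%), 18 (31.8%, 7 of 22, 13.9 to 54.9%) and 10 (32.7%, 55 of 168, 25.7 to 40.4%). The intervals of chromosomes 13, 4 and 18 included the share over all chromosomes, 40.5%, and that of chromosome 10 ended just below it. Without the 7 bins the shares on chromosomes 15 and 6 were 42.7% (31.8 to 54.1%) and 45.2% (35.9 to 54.8%), beside 38.6% over all broad regions outside the bins. Since the bins were picked for holding many members, leaving them out had to lower these shares, and the values are a description. The copy number of these chromosomes in KYSE510 is not given in the files, and its part in the shares was not tested. The median fold of the members was lowest on chromosome 15 (3.81) and highest on chromosome 19 (21.1), and on each of the 22 chromosomes it was below that of the broad regions with MLL3.

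**Figure D5:**
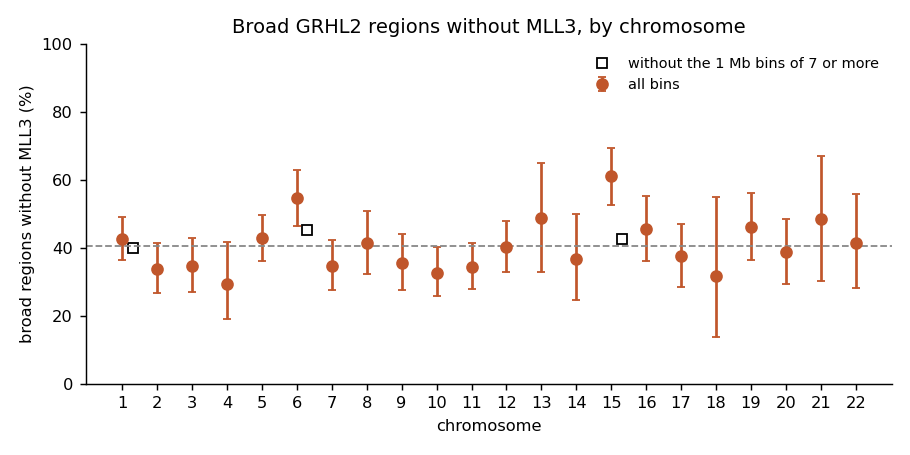
Percentage of broad GRHL2 regions without MLL3 (y axis) on each of chromosomes 1 to 22 (x axis), with exact 95% intervals. The dashed line marks 40.5%, the share over all chromosomes, and open squares give chromosomes 1, 6 and 15 without the 1 Mb bins that hold 7 or more members, a choice that has to lower the shares.

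Only the 2 strongest members came near the folds of the strongest broad regions with MLL3, and the third had a fold of 109. At a fold of 80 or more there were 14 members and 299 broad regions with MLL3. All coordinates are 1-based in hg19. The member of highest fold lay on chromosome 1 at 33365995 to 33368686 (2692 bp, fold 149, −log10 q 730). Its nearest MLL3 region was 89330 bp away and had an MLL3 fold of 19.2. The next lay on chromosome 19 at 33495069 to 33498604 (3536 bp, fold 146), with a weak MLL3 region (fold 6.55) 3144 bp from its edge. The 3 reference regions of highest fold, on chromosomes 9, 2 and 10, had folds of 169, 169 and 169.

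The other 8 members of the 10 with the highest fold lay on 7 chromosomes, 1, 2, 3, 5, 12, 13 and 19. On chromosome 12, chr12:51662250-51665921 (3672 bp, fold 109) had its summit 37 bp from the middle of the region and an MLL3 region of fold 4.93 at 9314 bp. A second region on that chromosome, chr12:62608200-62610544, had a fold of 102 and no MLL3 region within 386304 bp. Folds of 101 and 99.5 were reached by chr19:58905729-58907805 and chr3:51425426-51427281, which were 32093 and 47094 bp away from MLL3. The last 4 were chr13:41634114-41636778 with a fold of 93.2, chr1:9185881-9187844 with 90.7, chr5:176727602-176732221 with 89.2 and chr2:113914088-113916048 with 88.3. Of all 10, the region at 9185881 on chromosome 1 had MLL3 nearest by, at 1073 bp with an MLL3 fold of 7.98. An MLL3 region lay within 10 kb of 3 of the 10.

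The widest members were not simply the strongest, and only 2 regions, those at 176727602 on chromosome 5 and at 51662250 on chromosome 12, were among the 10 leading members both by width and by fold. The widest of all was chr9:77699657-77704334 (4678 bp, fold 47.2), with its summit 1593 bp from the middle. Second came the region on chromosome 5 (4620 bp, fold 89.2). The third, chr6:27113351-27117694 (4344 bp), had a fold of only 5.85 and belonged to the group described above, with 51 further GRHL2 regions within 50 kb. Between the members' median of 7.99 and their upper quartile of 22.8 lay chr6:53657669-53661515 (3847 bp, 8.07) and chr11:128759556-128763166 (3611 bp, 10.6). Intermediate values were found at chr16:87899871-87903924 (4054 bp, 28.2) and chr19:39897153-39901260 (4108 bp, 33.0), and high ones at chr11:77181739-77185708 (3970 bp, 73.5) and chr2:87622676-87626289 (3614 bp, 79.6). Among the 10, folds ran from 5.85 to 109, and only that of 5.85 lay below the members' median of 7.99. None of the 10 had a fold under 5, against 30.4% of all members.

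At the border of the rule, some members had MLL3 directly beside them. The smallest gap, 101 bp, separated chr5:179233027-179234750 (GRHL2 fold 4.15) from an MLL3 region of fold 5.57. The wide member at 87899871 on chromosome 16 was 153 bp away from an MLL3 region of fold 5.77 at chr16:87904078-87904649. Gaps of 164, 166 and 186 bp were found at chr5:107005053-107007677, chr1:142796119-142797817 and chr1:218653792-218656147, members with GRHL2 folds of 4.48, 4.40 and 4.65. All 5 neighbouring MLL3 regions had folds between 4.76 and 5.98.

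At the other extreme, the 5 members farthest from MLL3 had gaps of over 1 Mb. The most remote, chr16:64015549-64018421, had a GRHL2 fold of 36.7 and lay 1966837 bp from MLL3. Next were chr19:28282714-28285811 (fold 6.40, 1869104 bp), chr6:75993957-75995496 (fold 9.19, 1579577 bp), chr13:60969809-60971942 (fold 3.65, 1267623 bp) and chr8:120885712-120887597 (fold 14.8, 1180739 bp). These 5 had between 2 and 7 further GRHL2 regions within 50 kb, below the median of 12 over all members.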

How the data were processed

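The deposited files are 2 narrowPeak lists, 1 per antibody, called by the authors against input. The submitters' processing notes name BWA, Picard, MACS2 and deepTools, and hg19 as the build, without versions or settings. Fold ratio, −log10 p-value, −log10 q-value and score are as deposited by the authors. The score equals 10 times the −log10 p, truncated, in the GRHL2 list (all 153209 lines) and 10 times the −log10 q, truncated, in the MLL3 list (12195 of 12196 lines). The score was not used further. The summit is the start plus the summit offset in the files.

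Overlap of 1 bp or more, gaps and counts of neighbours were computed with Python 3.11.15, numpy 2.4.6, pandas 2.3.3 and scipy 1.17.1, and the interval functions were tested on simulated data. Regions named in the text are the 10 members of highest fold, the 10 widest, the 5 farthest from and the 5 nearest to MLL3, the 3 chromosomes at either end of the shares, and the 3 reference regions of highest fold; the leading regions of the clusters were chosen after their values were seen. Alternatives are in the closing section. Members, named lists and alternatives were chosen with earlier results of these data known. With 1 library per antibody there is no test between samples, and the depth is unknown. Assignment to genes, the gene lists and sequence features need an hg19 annotation or genome, which was not used here. For the same reason no sequence is printed, and gene names are not given.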

Additional observations from a re-analysis of the deposited data

Results flagged for a closer look

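Broad GRHL2 regions without MLL3 also occurred outside chromosomes 1 to 22, in sequence that the comparisons did not use. Chromosome X had 34 broad regions, of which 10 held no MLL3, with a median GRHL2 fold of 10.6 and a maximum of 51.6. Contigs outside the assembled chromosomes had 27 broad regions on 6 sequences, of which 16 held no MLL3, with a median fold of 3.93 and a maximum of 20.9. Both counts are of regions that the authors called against input. The input library itself was not analysed here, so no control level stands beside them.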

How the results depend on the processing

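Of 53 alternatives, 25 kept a value inside its interval, or a count inside 1.5 times that of the report, and the members' median fold stayed below that of the reference in each of the 5 alternatives run for that difference. A minimum width of 1000 bp gave 4710 members, a share without MLL3 of 57.5%, a median fold of 5.38, a difference to the reference of -15.2, a gap to MLL3 of 43.3 kb, GRHL2 within 1 kb of 42.9% and a share on chromosome 15 of 70.4%. A minimum of 2000 bp gave 312 members, 28.7%, a fold of 10.9, a difference of -44.5, 31.2 kb and 40.8% on chromosome 15. With the reference weighted to the members' widths the difference was -28.6, against -34.8. Keeping the crowded tracts gave a fold of 5.20 and a gap of 19.6 kb. Requiring no MLL3 within 10 kb gave 55.2 kb, and counting MLL3 only from a −log10 q of 5 upwards gave 46.5 kb. Taking GRHL2 only from a −log10 q of 100 upwards left 240 members, a fold of 43.4 and 47.2 kb. MLL3 within 250 bp of the summit gave a share without MLL3 of 44.5%. The following were chosen after seeing the data. Without the 7 bins the share was 38.6%, the fold 9.08, GRHL2 within 1 kb 43.5% and chromosome 15 42.7%. For GRHL2 from a −log10 q of 2 upwards the share was 38.6% and the fold 9.17. Settings for gene starts and sequence were not run, since they need a genome and annotation in hg19. Unknown read depth limits both lists. No paired analysis was possible because there was a single library per factor.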
